A study of Drosophila melanogaster with 51 samples.

Results

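The genes described here are the odorant receptor (Or), gustatory receptor (Gr) and ionotropic receptor (Ir) genes of Drosophila melanogaster, taken as the protein-coding genes whose symbol is Or, Gr or Ir followed by a number and a lower-case letter. The rule gave 179 of the 13968 protein-coding genes on the 7 chromosome arms, namely 59 Or, 60 Gr and 60 Ir genes. Their chromatin was read from a list of 16118 open regions in Kc167 cells, an embryonic line that resembles hemocytes, the blood cells of the fly. The list came from ATAC-seq, which marks exposed DNA by the insertions of a transposase. The cells were basal, carrying no expression construct and receiving no copper, and were measured in 3 libraries. The remaining 48 of the 51 libraries of the study came from 12 stable lines with copper-inducible constructs and were not analysed here. The list holds positions only, so it gives no signal, no replicate values and no read number for any region. Intervals below therefore cover counting error over genes and no difference between libraries, and no test over samples was possible.

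These genes encode the chemosensory receptors of the fly. Odorant receptors form ion channels with the shared subunit Orco in olfactory neurons of the antenna and maxillary palp, gustatory receptors detect sugars, bitter compounds and carbon dioxide, and ionotropic receptors descend from the ionotropic glutamate receptors and serve in taste, smell, temperature and humidity sensing. Each sensory neuron usually expresses few of the many receptor genes. Many of the genes lie next to related copies, and several are nested within other genes.

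Few of these genes had a region. A gene was called open when a region overlapped the 250 bp on either side of any of its annotated transcription start sites (TSSs), and closed when the authors called no region there. Of the 179 genes, 4 were open by this definition (2.23%, 95% Wilson interval 0.872 to 5.60%), beside 47.8% of all protein-coding genes (6670 of 13968). A region in the gene body, from the annotated start to the annotated end, was present in 7 genes, or 3.91% (1.91 to 7.85%), beside 48.9% of all protein-coding genes (6830 of 13968). The interval for the receptor genes lay below the share over all genes in both cases. The gene body includes the gene's own TSS, so the body share is not separate from the TSS share. Of all protein-coding genes, 7248 (51.9%) had a region at a TSS or in the body, and 6670 of these had an open TSS. In total 10 receptor genes (5.59%) had a region at a TSS or in the body, and 169 had neither.

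All 10 of these genes were Gr or Ir genes. None of the 59 Or genes had an open TSS (0%, up to 6.11%) and none had a region in the body. Among the Gr genes, 2 of 60 had an open TSS (3.33%, 0.919 to 11.4%), Gr61a and Gr94a, and 3 had a region in the body (5.00%, 1.71 to 13.7%), Gr22b, Gr61a and Gr98d. Among the Ir genes, 2 of 60 had an open TSS (3.33%, 0.919 to 11.4%), Ir60b and Ir60e, and 4 had a region in the body (6.67%, 2.62 to 15.9%), Ir40a, Ir41a, Ir76b and Ir93a. The intervals of the 3 families overlapped each other, so these counts do not separate the families at the TSS or in the body.

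**Figure D1:**
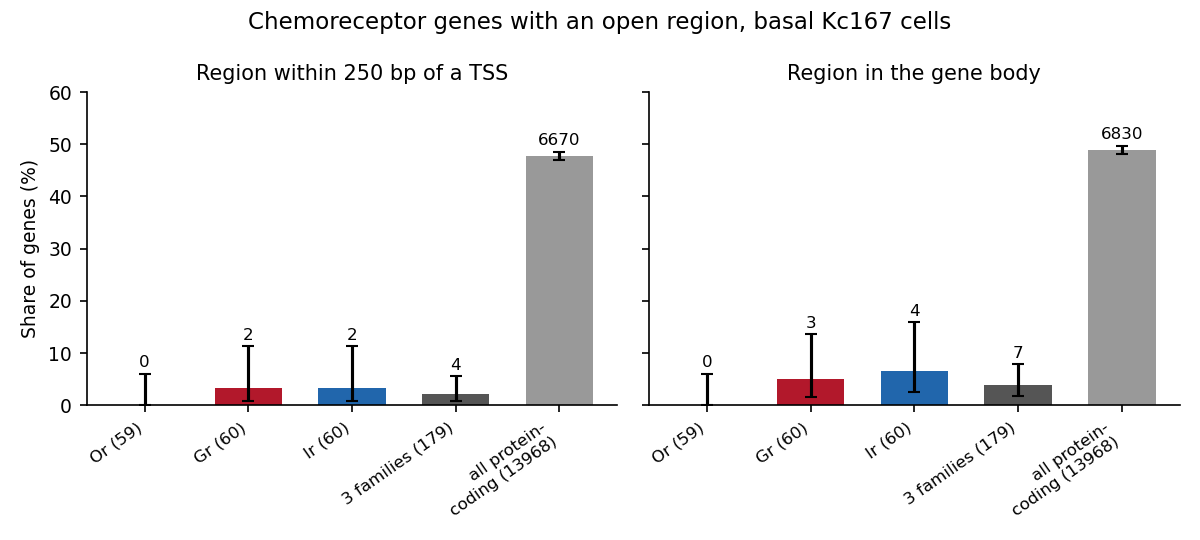
Share of genes (%) with a region within 250 bp of a TSS (left) and in the gene body (right), for the Or, Gr and Ir genes, the 3 families together and all protein-coding genes in basal Kc167 cells. Bars are shares, error bars are 95% Wilson intervals and the number above each bar counts genes with a region: 0, 2, 2 and 4 receptor genes beside 6670 genes on the left, and 0, 3, 4 and 7 beside 6830 on the right.

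The sequences that follow, read from the Release 6 reference, show the open DNA that these genes share with a neighbour or hold alone. Each is written 5′ to 3′ on the strand of the receptor gene, and capitals mark matches, on either strand, to any of 6 motifs. These were TATAAA (the TATA box), TCAGT (the core of the initiator), TATCGATA (the DNA replication-related element, DRE), GGTCACAC (part of the element called Ohler 1), GAGAGAG (the GAGA factor) and TGANTCA (AP-1, the heterodimer of Jun and Fos). The first is the whole stretch between the TSSs of JMJD5 and Gr61a (chr3L:841361-841450, plus strand, 90 bp), and the second is the region upstream of Gr94a, in an intron of p53 (chr3R:23051316-23051608, plus strand, 293 bp). The other 3 lie inside receptor genes away from any TSS: coding sequence of Gr22b (chr2L:1792689-1792873, minus strand, 185 bp), coding sequence of Ir40a (chr2L:22189781-22189952, minus strand, 172 bp) and an intron of Ir76b (chr3L:20109868-20110068, minus strand, 201 bp).
Gr61a, shared with JMJD5: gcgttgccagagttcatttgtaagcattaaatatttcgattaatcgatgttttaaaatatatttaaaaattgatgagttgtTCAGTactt
Gr94a, shared with p53: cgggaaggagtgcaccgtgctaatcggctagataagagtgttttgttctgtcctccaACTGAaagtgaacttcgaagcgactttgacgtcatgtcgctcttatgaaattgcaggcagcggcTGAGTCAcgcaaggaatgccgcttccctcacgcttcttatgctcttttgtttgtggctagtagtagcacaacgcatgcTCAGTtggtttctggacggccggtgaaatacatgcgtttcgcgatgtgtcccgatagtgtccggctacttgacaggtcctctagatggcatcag
Gr22b, coding: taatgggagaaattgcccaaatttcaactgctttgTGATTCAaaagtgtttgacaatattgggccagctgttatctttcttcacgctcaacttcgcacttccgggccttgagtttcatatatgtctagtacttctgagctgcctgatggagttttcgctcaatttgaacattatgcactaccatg
Ir40a, coding: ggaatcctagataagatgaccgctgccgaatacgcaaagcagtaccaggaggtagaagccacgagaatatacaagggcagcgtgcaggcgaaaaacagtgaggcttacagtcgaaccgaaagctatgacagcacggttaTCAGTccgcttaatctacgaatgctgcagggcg
Ir76b, intron: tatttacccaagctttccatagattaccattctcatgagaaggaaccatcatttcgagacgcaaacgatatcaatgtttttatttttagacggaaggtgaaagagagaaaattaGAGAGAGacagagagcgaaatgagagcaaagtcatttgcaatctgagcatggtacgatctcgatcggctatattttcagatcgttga

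Of these, the stretch before Gr61a held a TCAGT match next to its 3′ end at 26.7% GC, and the region before Gr94a held 2 TCAGT matches and 1 TGANTCA match at 50.9% GC. The Gr22b sequence held 1 TGANTCA match (41.1% GC), the Ir40a sequence 1 TCAGT match (51.2% GC) and the Ir76b sequence 1 GAGAGAG match within a run rich in the dinucleotide GA (38.3% GC). A match is a stretch of letters and no evidence that a factor is bound there.

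Each of the 4 regions at a receptor TSS was also at the TSS of a gene outside the 3 families. Gr61a encodes a sugar receptor and JMJD5 a Jumonji-domain protein. Their TSSs lie 91 bp apart and point away from each other, and a region of 174 bp (chr3L:841289-841462) covered both. It reached 12 bp into the 5′ UTR of Gr61a and covered 46 bp of the 5′ UTR and 26 bp of the coding sequence of JMJD5. Gr94a is nested on the opposite strand within p53, the gene for the p53 transcription factor. The region of 293 bp upstream of it ended 81 bp before the Gr94a TSS and began 86 bp from an internal TSS of p53, which lies 459 bp from that of Gr94a.

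Both Ir genes met the definition only through the edge of a neighbour's region. Ir60b, which serves in pharyngeal sugar sensing, begins 365 bp from the nearer TSS of Letm1, a gene for an inner mitochondrial membrane protein, on the opposite strand. The region there (chr2R:24515229-24515436, 208 bp) contained the Letm1 TSS and 90 bp of its 5′ UTR, and 2 bp of it fell in the Ir60b window. Ir60e begins 322 bp from the nearest TSS of CG13585, also on the opposite strand. The region of 181 bp there (chr2R:24531482-24531662) contained 2 TSSs of CG13585, and 41 bp of it fell in the Ir60e window. Neither region reached into the Ir gene, their near ends being 249 and 210 bp upstream of the Ir60b and Ir60e TSSs. With a window of 100 bp, with an overlap of at least 50 bp or with the region's midpoint in the window, no Ir gene had an open TSS, while Gr61a and Gr94a kept theirs.

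The genes just outside the window were Gr22c, at 262 bp from a region, and Gr97a, at 330 bp. The region nearest to Gr97a was at the TSS of CG5521, on the opposite strand, 445 bp away. When the window ran from 1000 bp upstream to 250 bp downstream, 12 receptor genes (6.70%) had a region in it, beside 52.8% of all protein-coding genes. This added Or67b, Or71a, Or88a and Or9a, with regions at the TSSs of Cyp40, Plp, CG12402 and Neb-cGP, and Gr5a, a receptor for the sugar trehalose, with a region at the TSS of Tre1. It also added Ir48c, with a region at the TSS of ths, a gene for a fibroblast growth factor ligand, and Gr97a and Gr22c. In 11 of the 12 genes at least 1 region in this window was at the TSS of a gene outside the families. The exception was Gr22c, whose upstream regions lie in the body of Gr22b.

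**Figure D2:**
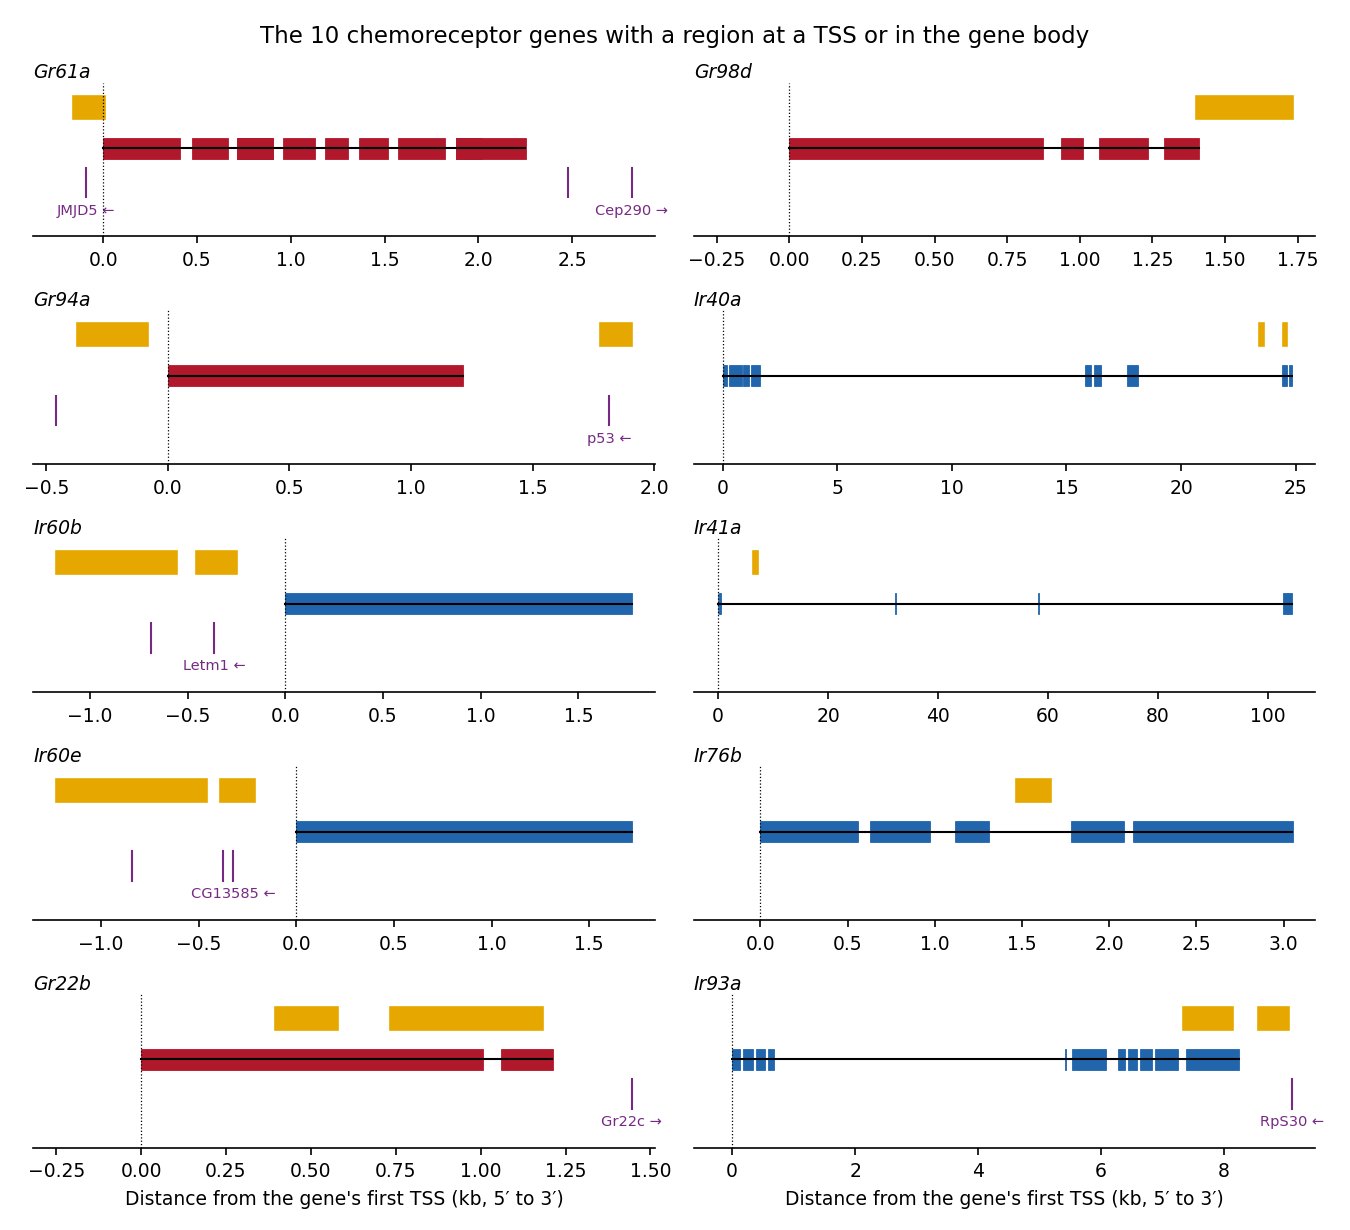
Maps of the 10 receptor genes with a region, drawn from each gene's first TSS (dotted line) in kb along its own 5′ to 3′ direction, with a separate scale for each gene. Coloured boxes on the black line are exons (red for Gr, blue for Ir), yellow boxes are open regions up to 1 kb beyond the gene, and purple ticks are TSSs of other protein-coding genes with an arrow for their direction. The regions of Gr61a, Gr94a, Ir60b and Ir60e lie at the purple ticks of JMJD5, p53, Letm1 and CG13585, while those of Gr22b, Ir40a, Ir41a and Ir76b lie within the gene; the 2 regions of Ir41a are drawn 100 bp apart and merge at this scale.

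The gene bodies held 10 regions, of which 1, that of Gr61a, was at the TSS of an outside gene. The other 9 were at no TSS of any annotated gene and lay in 6 genes (3.35%). Of all protein-coding genes, 15.3% had a body region that was at no TSS of a gene outside the families. These shares were not matched for gene length, whose upper quartile was 2.20 kb for the receptor genes and 5.00 kb for all protein-coding genes. Gr22b held 2 regions in its 1212 bp, of 452 bp (chr2L:1792085-1792536) and 185 bp (chr2L:1792689-1792873). These lay 732 to 1183 bp and 395 to 579 bp after its TSS, and 401 and 185 of their bases were coding. The 5 genes of the tandem run Gr22e, Gr22d, Gr22c, Gr22b and Gr22a spanned 10.9 kb and held no other region, and the nearest TSS of an outside gene, CG31933, was 30063 bp from Gr22b. The Gr98d region (chr3R:27547453-27547784, 332 bp) overlapped the last 10 bp of the gene, and its far end overlapped 10 bp of the 3′ UTR of Klp98A, a kinesin gene.

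Among the Ir genes, the 4 with a region in the body included 2 of the 4 co-receptors, the subunits that pair with many other ionotropic receptors. Ir76b, a co-receptor in taste and smell, held 1 region of 201 bp in an intron, 1466 to 1666 bp after its TSS. Ir93a, a co-receptor in temperature and humidity sensing, held 1 region of 814 bp near its 3′ end (chr3R:20851796-20852609), of which 725 bp were coding and 48 bp were in the 3′ UTR. The TSS of Ir93a itself was 7336 bp from that region, and RpS30, a ribosomal protein gene on the opposite strand, starts less than 1 kb beyond the 3′ end of Ir93a. The co-receptors Ir25a and Ir8a had no region in the body, and their nearest regions, 2406 and 4067 bp from the TSS, were at the TSSs of tank and CG12121.

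The other Ir genes with regions were the longest of the family. Ir40a, which serves in the detection of dry air, spans 24.9 kb and held a coding region of 172 bp (chr2L:22189781-22189952) and an intronic region of 233 bp (chr2L:22190764-22190996), of which 47 bp were annotated as an INE-1 transposable element. Ir41a, a receptor in amine detection, spans 104.4 kb, and its 2 regions of 661 bp (chr2R:4923793-4924453) and 151 bp (chr2R:4924553-4924703) lay in an intron, 6274 to 6934 bp and 7034 to 7184 bp after its TSS. Of these, 54 bp were in a pogo and 60 bp in an INE-1 element. All 13 regions at or in receptor genes consisted of sequence found once in the genome, by words of 50 bases.

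The receptor genes were short and mostly had a single start. Their median length was 1.46 kb for Or, 1.40 kb for Gr and 1.91 kb for Ir genes, beside 2.16 kb for all protein-coding genes, and 93.3% of the receptor genes had a single annotated TSS beside 73.5% of all genes. Outside the families, genes with the same mix of length and TSS number as the receptor genes had an open TSS in 44.3% and a region in the body in 43.3%, which is 40.3, 43.5 and 49.2% at the TSS for the mixes of the Or, Gr and Ir genes. Per length, the Or bodies held 0 regions in 98.6 kb, the Gr bodies 4 in 104.7 kb (3.82 per 100 kb) and the Ir bodies 6 in 267 kb (2.24 per 100 kb), beside 15.0 per 100 kb over all protein-coding gene bodies. Open bases made up 0.619% of the receptor gene bodies and 3.82% of all protein-coding gene bodies. Without Ir40a and Ir41a, a choice made after seeing the data, the Ir bodies held 1.45 regions per 100 kb.

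The distance from a TSS to the nearest region was longer for the receptor genes than for protein-coding genes at large, open genes included. Of all protein-coding genes 47.8% had an open TSS, so this contrast is not separate from that in open TSSs. Medians over closed protein-coding genes alone were not computed. The median distance was 9.81 kb for Or (quartiles 4.69 and 19.7 kb), 3.65 kb for Gr (2.04 and 6.51 kb) and 7.07 kb for Ir genes (3.97 and 16.0 kb). It was 6.42 kb for the 179 genes, beside 0.452 kb for all protein-coding genes. The 95% order-statistic intervals of these medians were 6.84 to 16.6 kb for Or, 2.87 to 4.96 kb for Gr and 4.75 to 11.7 kb for Ir, so that of Gr lay below that of Or and met the lower end of that of Ir. Neighbouring genes of a tandem run share their surroundings, which these intervals do not take into account. Or10a and Gr10a share an annotated span and TSS, 2023 bp from a region, so the same values count in both families. Of the 175 closed genes, 9 lay within 1 kb of a region and 73 within 5 kb, of which 16 were Or, 37 Gr and 20 Ir genes. More than 20 kb from any region were 14 Or, 6 Gr and 12 Ir genes. These counts were not made for closed protein-coding genes alone. With open genes included, 28.8% of Or, 65% of Gr and 36.7% of Ir genes lay within 5179 bp of a region, beside 75.9% of all protein-coding genes. Within 21186 bp the shares were 78.0, 90 and 80%, beside 93.2%.

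**Figure D3:**
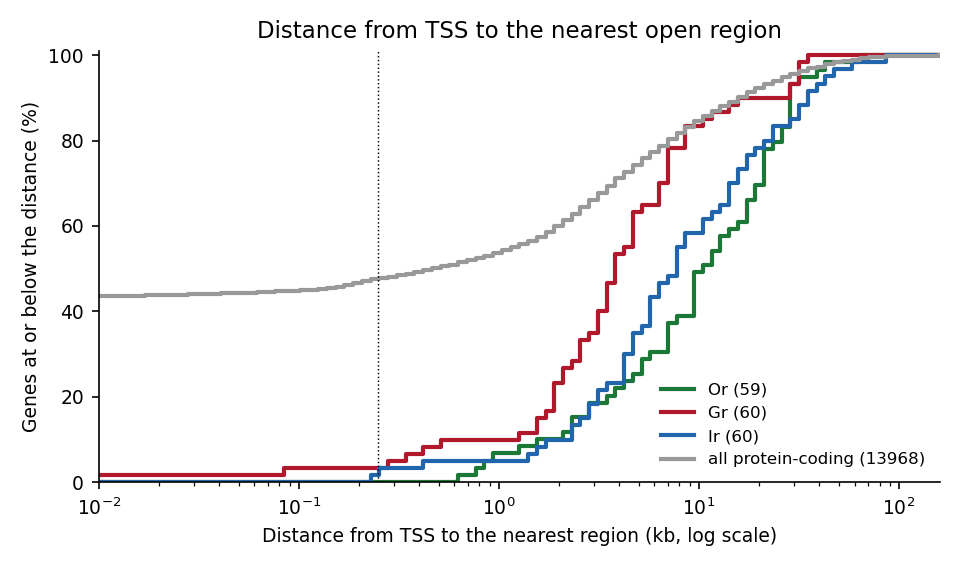
Cumulative share of genes (%) against the distance from the TSS to the nearest region (kb, log scale), for Or (green), Gr (red), Ir (blue) and all protein-coding genes (grey). The dotted line marks 250 bp, where the grey curve is at 47.8% and the receptor curves are at or below 3.33%; the medians are 9.81, 3.65, 7.07 and 0.452 kb.

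The Or genes nearest to a region were Or88a (622 bp), Or71a (721 bp), Or67b (776 bp), Or9a (897 bp) and Or2a (1206 bp), and the first 4 of these regions were at the TSS of an outside gene. The Or genes farthest from one were Or69a (38.8 kb) and Or98a (59.8 kb). Among the closed Gr genes, Gr22c (262 bp), Gr97a (330 bp), Gr22b (395 bp), Gr5a (502 bp) and Gr59a (1225 bp) were nearest, and Gr36a (30.8 kb) and Gr92a (33.7 kb) were farthest. Among the closed Ir genes, Ir48c (395 bp), Ir48b (1318 bp), Ir76b (1466 bp), Ir56b (1585 bp) and Ir68b (2109 bp) were nearest, and Ir20a (56.4 kb) and Ir11a (85.1 kb) were farthest. Ir11a lay in the longest stretch without a region around any receptor gene, 258.8 kb on X.

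Within 10 kb on either side of the first TSS, the Or genes had a median of 1 region, the Gr genes 2 and the Ir genes 1.5, beside 4 for all protein-coding genes. No region lay within this distance in 29 Or genes (49.2%), 10 Gr genes (16.7%) and 24 Ir genes (40.0%), beside 15.2% of all protein-coding genes. The stretch free of regions around the first TSS had a median length of 39.8 kb for the receptor genes and 6.19 kb for all protein-coding genes. A TSS inside a region counted as 0 in these medians. A single stretch often held several receptor genes: 178 of the 179 lay in 120 such stretches, the largest group being the 7 genes Ir7a to Ir7g in 151 kb on X.

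Most runs of neighbouring receptor genes held no region. Runs of other protein-coding genes were not counted in the same way, so how unusual this is was not tested. A tandem run was a set of receptor genes that were adjacent when protein-coding genes were ordered by their lowest coordinate on the arm. The 28 runs held 80 receptor genes, and 25 of the runs held no region between their first and last base. The 3 runs with regions were that of Gr22b, with 2, that of Gr98b, Gr98c and Gr98d, with 1, and that of Gr93a, Gr93b, Gr93c and Gr93d, with 3 that lay between the genes. In tandem runs 1 gene had an open TSS (Ir60b) and 2 had a region in the body, and among the 99 single genes these numbers were 3 and 5. Near-identical copies could hide a region, since reads with several alignments had been dropped. Only Or19a and Or19b, with 11.1% unique words in the TSS window, fell below 90% unique sequence, and without them the share with an open TSS was 2.26%.

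Some receptor genes lay beside open genes, in a smaller share than genes at large where distance is not matched. The nearest outside gene had an open TSS for 66 of the 179 receptor genes (36.9%, 30.1 to 44.1%), beside 51.6% (50.7 to 52.4%) for the 13789 protein-coding genes outside the families. These were 16 of the Or (27.1%), 26 of the Gr (43.3%) and 24 of the Ir genes (40.0%). Receptor genes of a tandem run can share a neighbour, which is then counted for each of them, and the interval does not take this into account. The nearest outside TSS was farther away, with a median of 4.30 kb, than the nearest other TSS was for all protein-coding genes, with 1.40 kb. Relatives were skipped for the receptor genes but not for genes outside the families, so these distances are not fully alike. Of the 12 receptor genes within 500 bp of an outside TSS, 5 had an open neighbour, and 4 of these 5 were open themselves, the fifth being Gr97a. Of the 167 receptor genes farther away, 61 had an open neighbour and none had an open TSS. For genes outside the families, the share with an open TSS was 74.9% within 500 bp of another gene's TSS, 44.8% from 501 to 1000 bp, 33.8% from 1001 to 5000 bp and 36.7% beyond. The neighbour shares of 36.9 and 51.6% mix these distances. Within 500 bp, the neighbour was open for 41.7% of the 12 receptor genes and 75.1% of the 4276 outside genes. These shares were 45.5 and 47.3% from 501 to 1000 bp, 30.9 and 38.4% from 1001 to 5000 bp, and 41.3 and 42.8% beyond.

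**Figure D4:**
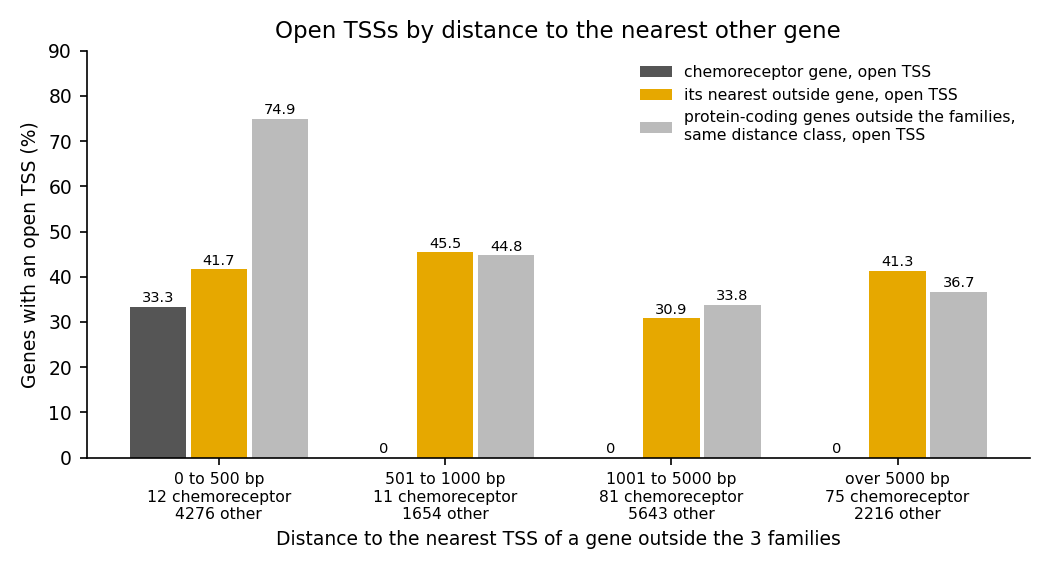
Share of genes (%) with an open TSS, by distance to the nearest TSS of a gene outside the 3 families: receptor genes (dark grey), the nearest outside gene of each receptor gene (yellow) and protein-coding genes outside the families in the same class (light grey). Receptor genes are at 33.3% within 500 bp (4 of 12) and at 0 in the 3 farther classes, where their neighbours are at 45.5, 30.9 and 41.3%.

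Most nested receptor genes lay in hosts with an open TSS, at varied distances from the nearest region. In all, 25 receptor genes lay wholly within a gene outside the families, and 21 of these had a host with an open TSS. Gr94a was the only nested receptor gene with an open TSS, and none held a region in its body. These shares were not computed for other nested genes, and an open host TSS can lie far from the nested gene. Or71a lies in Plp, a centrosomal protein gene with 10 regions over 28.6 kb, and the region nearest to its TSS, at 721 bp, was at a TSS of Plp. Or1a lies in CG3777, with 5 regions over 70.8 kb, and was 19665 bp from the nearest. Gr39a lies in Mondo, with 4 regions over 24.0 kb, and was 3249 bp from the nearest. Or98a lies in CG34353, a gene of 137.9 kb with 1 region, which was 59814 bp away.

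For the 175 closed receptor genes, the nearest region was at the TSS of an outside gene, coding or not, in 91 cases (52.0%), beside 56.3% of all 16118 regions that were at such a TSS. These were 30 of 59 Or (50.8%), 26 of 58 Gr (44.8%) and 35 of 58 Ir genes (60.3%). The nearest region lay upstream in 86 genes and downstream in 89. Because neighbours share regions, the 175 genes had 128 distinct nearest regions.

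By function, the 9 sugar receptor genes included 1 with an open TSS, Gr61a. Gr5a was 502 bp from a region, at Tre1, and Gr43a, a receptor for fructose, 2500 bp from a region at Glo1. The cluster Gr64a to Gr64f, of 6 genes in 10.8 kb, held no region. It lay in a stretch of 14.9 kb between a region at CG11594 and another at CG11593 and Rcd5, and its TSSs were 1425 bp (Gr64a) to 6718 bp (Gr64d) from the nearer of these. Gr64b and Gr64c share an annotated span, and so nearly do Gr64d and Gr64e, so these are not separate measurements. The carbon dioxide receptor genes Gr21a and Gr63a, which act together in the same neurons, were 29207 and 3106 bp from a region. None of the 5 broadly expressed bitter receptor genes, among them Gr33a (3632 bp) and Gr66a (1886 bp), none of the 7 maxillary palp Or genes, none of the 4 Ir co-receptors and none of the 13 other antennal Ir genes had an open TSS. With so few genes the Wilson intervals were wide, reaching 43.4, 35.4, 49.0 and 22.8% for these 4 groups.

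Olfactory partner genes, transduction genes of sensory neurons in general and regulators of sensory neuron fate were read as 3 groups, whose intervals overlapped. None of 5 olfactory partner genes had an open TSS (0%, up to 43.4%) or a region in the body: Orco, the shared odorant receptor subunit (15907 bp from a region), Snmp1, a membrane protein for pheromone detection (5022 bp), lush, an odorant-binding protein gene (1914 bp), the ammonium transporter gene Amt (2219 bp) and the esterase gene Jhedup (6560 bp). Of 8 sensory transduction genes, 3 had an open TSS (37.5%, 13.7 to 69.4%), namely Galphaq, norpA and rdgB, which encode a G protein subunit, a phospholipase C and a phosphatidylinositol transfer protein, while the channel genes trp, trpl, TrpA1, iav and nan were closed. Of 14 regulators of sensory neuron fate and receptor choice, 8 were open (57.1%, 32.6 to 78.6%): pdm3, bab1, bab2, rn, pros, dan, danr and lz. The closed regulators were acj6, amos, ato, onecut, Poxn and sens. The share over all protein-coding genes, 47.8%, lay within the intervals of the transduction genes and the regulators and above that of the partner genes.

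Rhodopsin, ionotropic glutamate receptor and nicotinic acetylcholine receptor genes were also mostly closed at the TSS, with intervals below the 47.8% of all protein-coding genes. None of 7 rhodopsin genes had an open TSS (0%, up to 35.4%), although Rh4 held 3 regions in its body. Of the ionotropic glutamate receptor genes, the relatives of the Ir genes, 1 of 12 had an open TSS (Nmdar1, 8.33%, 1.49 to 35.4%), and of the nicotinic acetylcholine receptor genes 1 of 10 (nAChRalpha3, 10%, 1.79 to 40.4%). A region in the body was present in 3 of the 12 and 4 of the 10, beside 48.9% of all protein-coding genes. As a check on the cell type, 9 of 12 hemocyte marker genes had an open TSS (75.0%, 46.8 to 91.1%), including srp, ush, Pxn, Hml, eater and crq, while He, NimC1 and Sr-CI were closed. Of 10 neuronal marker genes 3 were open, cpx, elav and Syx1A (30.0%, 10.8 to 60.3%). Both marker intervals held the 47.8% of all protein-coding genes. In the body, 7 of the 12 hemocyte and 7 of the 10 neuronal marker genes held a region. The 7 pseudogenes named like receptor genes had no region at a TSS or in the body.

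The promoters of the 3 families differed in the letters they held. In the 300 bp from 250 bp before to 50 bp after the first annotated TSS, TATAAA was present on either strand in 46 of 59 Or genes (78.0%), 18 of 60 Gr genes (30.0%) and 33 of 60 Ir genes (55%), beside 45.8% of all protein-coding genes. TCAGT was present in 25 Or, 33 Gr and 33 Ir genes (42.4, 55 and 55%), beside 51.5%. The motifs typical of broadly used promoters were rare: the DRE was found in 1 of 179 (0.559%, beside 9.36%) and the Ohler 1 motif in none (beside 7.69%). GAGAGAG was found in 2 (1.12%, beside 5.86%) and TGANTCA in 12 (6.70%, beside 6.18%). The median GC content was 39.3%, beside 38.0%. The annotated TSS of 132 receptor genes (73.7%) coincided with the start codon, beside 3.77% of all protein-coding genes, so for these genes the window was placed on the start codon and the start of transcription is not known from the annotation.

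**Figure D5:**
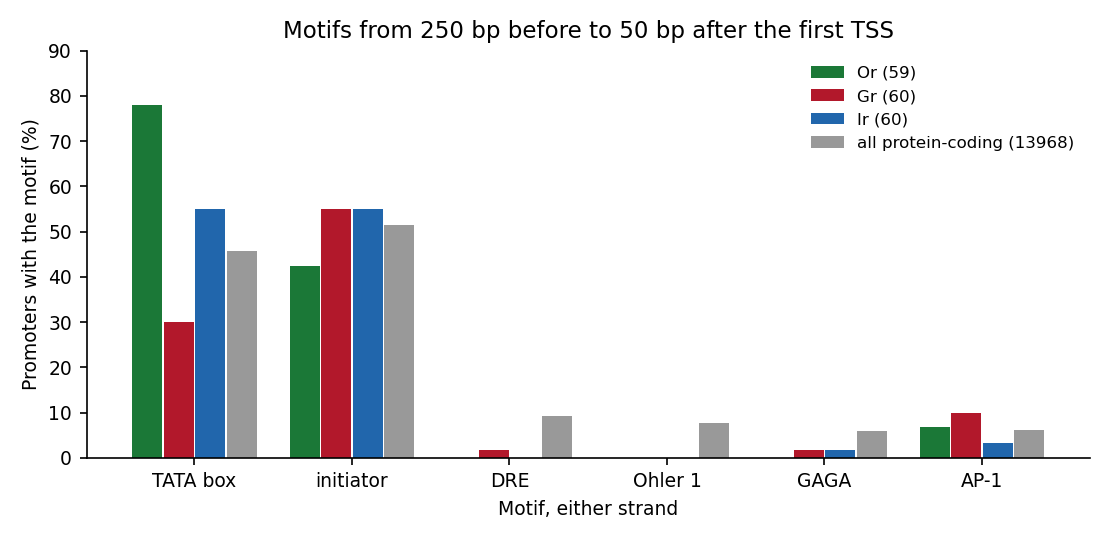
Share of promoters (%) that hold each motif on either strand in the 300 bp around the first annotated TSS, for Or, Gr, Ir and all protein-coding genes. The TATA box (TATAAA) is at 78.0% in Or, 30.0% in Gr and 55% in Ir genes beside 45.8%, and the DRE and Ohler 1 motifs are at 0 to 1.67% in the families beside 9.36 and 7.69%.

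Motifs were also read in the 200 bp around the midpoint of each region, which takes in flanking sequence where a region is shorter. Of the 13 regions at or in receptor genes, TCAGT was present in 6, in Ir40a, Ir41a, Ir60e, Gr61a and Gr94a, beside 30.9% of all 16118 regions. TGANTCA was present in 2, the sequences of Gr22b and Gr94a printed above, beside 5.25%. GAGAGAG was present in 1 (Ir76b, beside 10.9%) and TATAAA in 1 (Ir40a, beside 17.5%), and TATCGATA and GGTCACAC in none, beside 5.16 and 5.08%. With 13 regions these counts give no more than a description. Their widths ran from 151 to 814 bp, and the median width was 208 bp, beside 233 bp for all regions.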

How the data were processed

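The 3 ATAC-seq libraries of basal Kc167 cells were used, and the other libraries were not analysed here. By the study's methods and the submitters' notes on processing, the authors mapped reads to dm6 without scaffolds using Bowtie 1.2.2, allowing a single alignment, offset them by 4 bp (plus strand) or 5 bp (minus strand) for the transposase and widened them by 5 bp on both sides. Peaks were called per replicate with MACS2 2.1.1.20160309 (shift -45, extension 100, q value 0.01), and regions open in at least 2 of 3 replicates were merged. The deposited values were region positions without score or counts, so the reads behind each region are unknown from it and nothing per library could be compared. The study's supplement states read totals per library, which were not used here. The sources used here give no read length and do not say whether the libraries came from separate cultures.

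Positions, counted from 1, were compared with Ensembl release 115 genes (BDGP6, version 54) and the Release 6 sequence, whose arm lengths fit dm6. An overlap of at least 1 bp counted. Shares have 95% Wilson intervals (statsmodels 0.14.6), which cover counting error only. Overlap and distance code was tested on simulated data. Python 3.11.15, pandas 2.3.3, numpy 2.4.6 and scipy 1.17.1 were used, and matplotlib 3.10.9 for plots.

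The receptor genes and lists were chosen with earlier results of these data known. Named genes were all those with a region, per family the 5 closed genes nearest to and 2 farthest from a region, the Ir co-receptors, sugar and carbon dioxide Gr genes, genes sharing a region, and open members of the lists. Genes named beyond these were chosen after their values were seen.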

Additional observations from a re-analysis of the deposited data

How the results depend on the processing

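Of 61 alternative values, 47 stayed within the interval of the main value and 14 moved outside it. The share over the 3 families stayed below that over all protein-coding genes, except where regions at an outside TSS were left out. There both TSS shares were 0%. For genes outside the families this 0% was fixed by the setting, since their own TSS regions are among those left out. Leaving out regions at the TSS of an outside gene brought the open TSS share to 0% in the 3 families, in Gr and in Ir, since all 4 regions were shared. A window from 1000 bp upstream to 250 bp downstream gave 6.70% for the 3 families and 6.78% for Or. For Ir the share was 0% with a window of 100 bp, with an overlap of at least 50 bp and with the midpoint in the window. For gene bodies, adding 2000 bp upstream gave 14.5% for the 3 families, 8.47% for Or and 20% for Gr, beside 59.8% of all protein-coding genes, and an overlap of at least 50 bp or the midpoint in the gene gave 1.67% for Gr. With regions of at least 200 bp, the median distance was 5.96 kb for Gr. No replicate could be left out and no stricter threshold applied, because the list combines the libraries and has no score. No paired analysis was possible because the list carries no replicate columns. An unlisted region may still be accessible below the authors' threshold, and without reads per region the list does not show how far depth limits the calls.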
